A study of Mus musculus with 20 samples.

Results

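The liver response to PCB 126 was followed across all 20 mouse livers of the series, as the difference between the 10 mice given PCB 126 and the 10 mice not given it. Both sets of 10 were divided equally by Aroclor 1260, which was entered as a second factor, so the difference of interest (the PCB 126 coefficient) is the average of PCB 126 against no PCB 126 over both Aroclor backgrounds. RNA was sequenced from livers of male C57Bl/6J mice, 5 in each of 4 groups, which had all been fed a high-fat diet (HFD, with fat at 42% of calories) for 12 weeks from an age of 8 weeks. After 2 weeks of diet they received by 1 oral gavage either corn oil alone (HFD control), Aroclor 1260 at 20 mg/kg (HFD + Aroclor), PCB 126 at 20 µg/kg (HFD + PCB 126) or both at these doses (HFD + Aroclor + PCB 126, the combined exposure). Every mouse was on the HFD, so no group shows the liver without it, and PCB 126 was given at 1 dose and read at 1 time. A gene was tested if its counts summed to 10 or more over the 20 libraries, which 15522 of the 21780 genes in the deposited table did.

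PCB 126 is a coplanar, dioxin-like congener and a ligand of the aryl hydrocarbon receptor (AhR), while Aroclor 1260 is a commercial mixture of mostly non-dioxin-like congeners. In the resting cell the AhR is held in the cytosol by chaperones that include HSP90 and its cochaperone p23. Once a ligand binds, it enters the nucleus, pairs with ARNT and binds a short core motif, GCGTG, near its target genes. The best known of these in liver encode the CYP1 enzymes, and TIPARP and AHRR act back on the receptor.

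The livers carried their defining markers, with albumin (Alb) at a mean of 65097 CPM (counts per 1e+06 counts of a library) without PCB 126 and 64353 CPM with it. For none of 7 lists of liver cell type markers did the summed level pass the test between mice with and without PCB 126 (lowest p = 0.125, two-sided exact permutation test within each Aroclor background). In RNA of whole liver, fewer cells of a type and less RNA per cell cannot be told apart. Among 2 lists of adrenal genes put together after their values were seen, 8 of the cortex (such as Cyp11a1 and Star, the first steps of steroid synthesis) summed to 2261 CPM in HFD control mouse 4 and 1955 CPM in mouse 4 of the combined exposure, against 2.46 to 4.62 CPM in the other 18 livers. The 5 genes of the adrenal medulla, such as Chga and Th, summed to 640 and 289 CPM in the same livers and to at most 0.211 CPM in the others. HFD control mouse 4 alone also held 53.1 CPM over 6 skeletal muscle genes, against at most 0.352 CPM elsewhere. Each of the 2 libraries with adrenal transcripts is 1 of 5 in its group, 1 without and 1 with PCB 126, and results are given with 20 and with 18 libraries where these differ in their call.

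Of the 15522 genes tested, 776 (5%) differed between mice with and without PCB 126 at an adjusted p under 0.05 by edgeR's quasi-likelihood test. The difference was upwards in 432 of them (2.78% of tested genes) and downwards in 344 (2.22%). Without adjustment, 24.1% of genes had a p under 0.05. The differences were mostly modest. The median size of the log2 fold change (log2FC) was 0.38 for the genes that rose and 0.46 for those that fell, and 550 genes (3.54%) were beyond 0.34 in either direction. Without the libraries that held adrenal transcripts, 923 genes passed, and 627 of the 776 were among them in the same direction, while 772 of 776 kept their direction. The libraries left are among those that chose the 776 genes, so that kept directions largely follow from the choice. The count also rested on single mice. It fell below 776 by more than 1.5 times without HFD + Aroclor mice 3 (371), 4 (499) or 5 (395), HFD + PCB 126 mice 1 (394), 2 (402) or 5 (435), or combined mice 2 (500) or 5 (337). It rose to 1593 without HFD control mouse 4 and to 1714 without HFD + PCB 126 mouse 3.

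Called genes differed in base composition. The exons of the genes that rose had a median GC content of 44.1% and those of the genes that fell 56.1%, against 50.2% over all tested genes. The libraries differed in the same respect. Their GC slope, the trend of log2 CPM, taken against the average library, per 10 points of GC content, was 0.0985 to 0.440 in HFD control, −0.103 to 0.369 in HFD + PCB 126, −0.0991 to 0.113 in HFD + Aroclor and −0.560 to −0.127 with the combined exposure. It averaged −0.122 ± 0.298 with PCB 126 and 0.122 ± 0.165 without it (SD, 10 libraries each), a difference of −0.24 (p = 0.00391 by the two-sided exact permutation test within backgrounds, 0.0430 adjusted over 11 library measures). The library numbers run through the groups in order, so library order and group cannot be told apart. With a smooth of GC content removed from each library, 126 genes passed (0.812%), 82 of them higher (0.528%) and 44 lower (0.283%), and 108 of these were called in the same direction without the correction (0.696%), 69 higher (0.445%) and 39 lower (0.251%). At an unadjusted p under 0.05, 11.6% of genes passed after the correction. Nearly all called genes kept their sign after the correction, 431 of 432 that rose and 341 of 344 that fell, against 12354 of 15522 over all tested genes. The called genes were chosen in these same libraries, so that kept signs largely follow from the choice. Of the 108 genes, 104 were called with 18 libraries, and 97 with 18 libraries and the GC correction. Calls below are given with both counts where they differ.

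**Figure D1:**
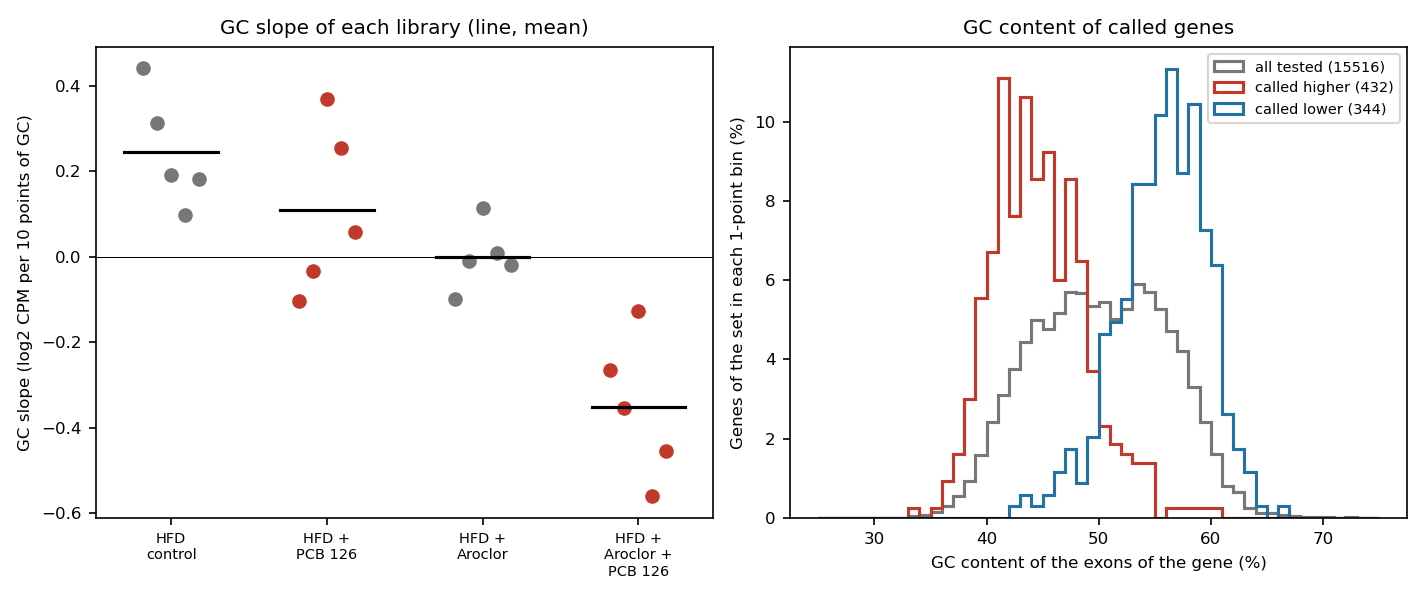
Left, GC slope of each of the 20 libraries (points, grey without and red with PCB 126) with the group mean as a line, in log2 CPM per 10 percentage points of GC content. Right, percentage of genes in each 1-point bin of exon GC content for all tested genes with a GC content (15516), genes called higher (432) and genes called lower (344); the genes called higher centre on 44.1% and those called lower on 56.1%.

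Cyp1a2, the hepatic AhR target that oxidises caffeine and aromatic amines, had the smallest p together with Slc46a3, Nr1d1, Spon2 and Zfp280c. Cyp1a2 (ENSMUSG00000032310, chr9:57676937-57683703, GRCm38, minus strand) stood at 356, 437, 517, 249 and 374 CPM in HFD control mice 1 to 5, and at 1120, 1127, 1495, 2601 and 1608 CPM in HFD + PCB 126 mice 1 to 5. On Aroclor it stood at 492, 400, 279, 385 and 367 CPM without PCB 126 and at 992, 856, 537, 632 and 858 CPM with it. All 10 livers with PCB 126 were above all 10 without it, a separation seen in 8 of all tested genes (0.0515%). The log2FC was 1.53 ± 0.20 (SE) with an adjusted p of 0.000743, and 1.38 to 1.61 over the 20 fits that each left out 1 mouse. It was 2.04 ± 0.24 without Aroclor (adjusted p = 0.000294) and 1.01 ± 0.23 with it (adjusted p = 0.0537).

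Slc46a3, a lysosomal membrane transporter gene that responds to dioxin in mouse liver, was separated in the same manner. Its levels were 35.5, 37, 39.5, 18.9 and 30.4 CPM in HFD control and 91.3, 86.4, 74.1, 122 and 95.1 CPM in HFD + PCB 126. With Aroclor they were 56.3, 47.9, 36.5, 45.5 and 34.7 CPM, and with both exposures 80.1, 83.0, 65.7, 58.4 and 82.2 CPM. No liver with PCB 126 was as low as the highest one without it (58.4 against 56.3 CPM). The log2FC was 1.14 ± 0.15 (adjusted p = 0.000743), made up of 1.54 without and 0.74 with Aroclor.

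Cyp1a1 (ENSMUSG00000032315), the prototypical AhR target in most tissues, did not pass for the PCB 126 coefficient. It was at 0.940, 0.799, 0.458, 0.219 and 0.645 CPM in the HFD control livers, against 4.09, 7.80, 4.60, 314 and 62.1 CPM in HFD + PCB 126. With Aroclor alone it was at 0.898, 1.23, 0.838, 0.737 and 0.922 CPM, and with both exposures at 0.792, 1.19, 0.875, 1.13 and 2.62 CPM. The groups did not overlap without Aroclor, and on Aroclor they did. Among the HFD + PCB 126 livers the level spanned 4.09 to 314 CPM, and the average log2FC of 3.99 ± 1.19 had an adjusted p of 0.0538 by edgeR. It fell to 2.75 without HFD + PCB 126 mouse 4 and passed the threshold in 6 of 20 fits that left out 1 mouse. Cyp1a1 also passed in 7 of 15 other settings of the processing. By edgeR its adjusted p was 0.0510 with 18 libraries and 0.133 after GC correction. Without Aroclor the log2FC was 6.93 ± 1.08 (adjusted p = 0.00950) and with Aroclor 0.53 ± 1.03 (adjusted p = 0.782).

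The difference between the 2 backgrounds was tested as an interaction, and no gene passed with edgeR (0 of 15522, 0%, with 1846 genes or 11.9% at an unadjusted p under 0.05). For Cyp1a1 the interaction had an unadjusted p of 0.000257 and an adjusted p of 0.284 by edgeR. DESeq2 called 1 gene, which was Cyp1a1, with an interaction log2FC of −6.51 ± 1.24 and an adjusted p of 0.00207. For Cyp1a2 and Slc46a3, whose differences were larger without Aroclor, the unadjusted p of the interaction was 0.00462 and 0.00471 and neither passed after adjustment.

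Over 15 genes of the AhR battery, 4 rose and none fell at the threshold (5% of all tested genes were called), with a median log2FC of 0.25 against −0.02 over all genes. After GC correction 3 were called, where 0.812% of all tested genes were, and the median was 0.17 against −0.006 over all genes. Besides Cyp1a2 and Slc46a3, the 4 that rose were Ugt1a9 and Fmo2. The list was made with earlier results of these data known. Slc46a3 had been picked out from HFD + PCB 126 against HFD control in these same mice. Ugt1a9, a glucuronosyltransferase, ranged from 6.01 to 25.1 CPM (median 10.1) without PCB 126 and from 8.94 to 49.3 CPM (median 27.2) with it, with a log2FC of 1.16 ± 0.26 (adjusted p = 0.0159). The genes of the Ugt1a cluster share their last exons, where reads do not tell them apart, so the count of Ugt1a9 is uncertain. Its adjusted p after GC correction was 0.0570. Fmo2, a flavin monooxygenase, ranged from 11.2 to 25.4 CPM (median 15.4) without PCB 126 and from 19.9 to 50.1 CPM (median 28.6) with it. The groups overlapped for both genes. The log2FC of Fmo2 was 0.84 ± 0.15 (adjusted p = 0.00742, and 0.0368 after GC correction).

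The other members did not pass. Ugt1a6a had a log2FC of 0.43 ± 0.13 (adjusted p = 0.0577). Tiparp and Ahrr, which limit the receptor's activity, had values of 0.25 ± 0.25 and 0.40 ± 0.43, and Nqo1, a quinone reductase, 0.14 ± 0.17. For Cyp1b1, another CYP1 gene that the adrenal gland also expresses, the highest levels were the 4.39 and 6.84 CPM of the libraries that held adrenal transcripts, against 0.492 to 1.54 CPM in the other 18. Its log2FC was 0.04 ± 0.48 with 20 libraries and −0.06 with 18. The remaining members, Ugt1a6b, Ugdh, Gsta1, Gsta2 and Aldh3a1, lay between −0.33 and 0.24. Aldh3a1 and Ahrr were near the floor, with means of 0.025 and 0.30 CPM, so that their values say little about a response.

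Of 5 genes of the receptor complex, 1 passed with and without GC correction, where 0.812% of all tested genes were called with it and 5% without it. Arnt, the partner of the AhR in the nucleus, rose from 24.8 to 39.8 CPM (median 34.5) to 33.6 to 53.4 CPM (median 45.1), a log2FC of 0.44 ± 0.08 (adjusted p = 0.00742, and 0.0227 after GC correction), with 0.39 without and 0.50 with Aroclor. Ahr itself had a log2FC of 0.15 ± 0.19 (adjusted p = 0.674). The HSP90 genes Hsp90aa1 and Hsp90ab1 had −0.47 and −0.29 (adjusted p = 0.301 and 0.128). Ptges3, which encodes p23, had −0.02 (adjusted p = 0.922).

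**Figure D2:**
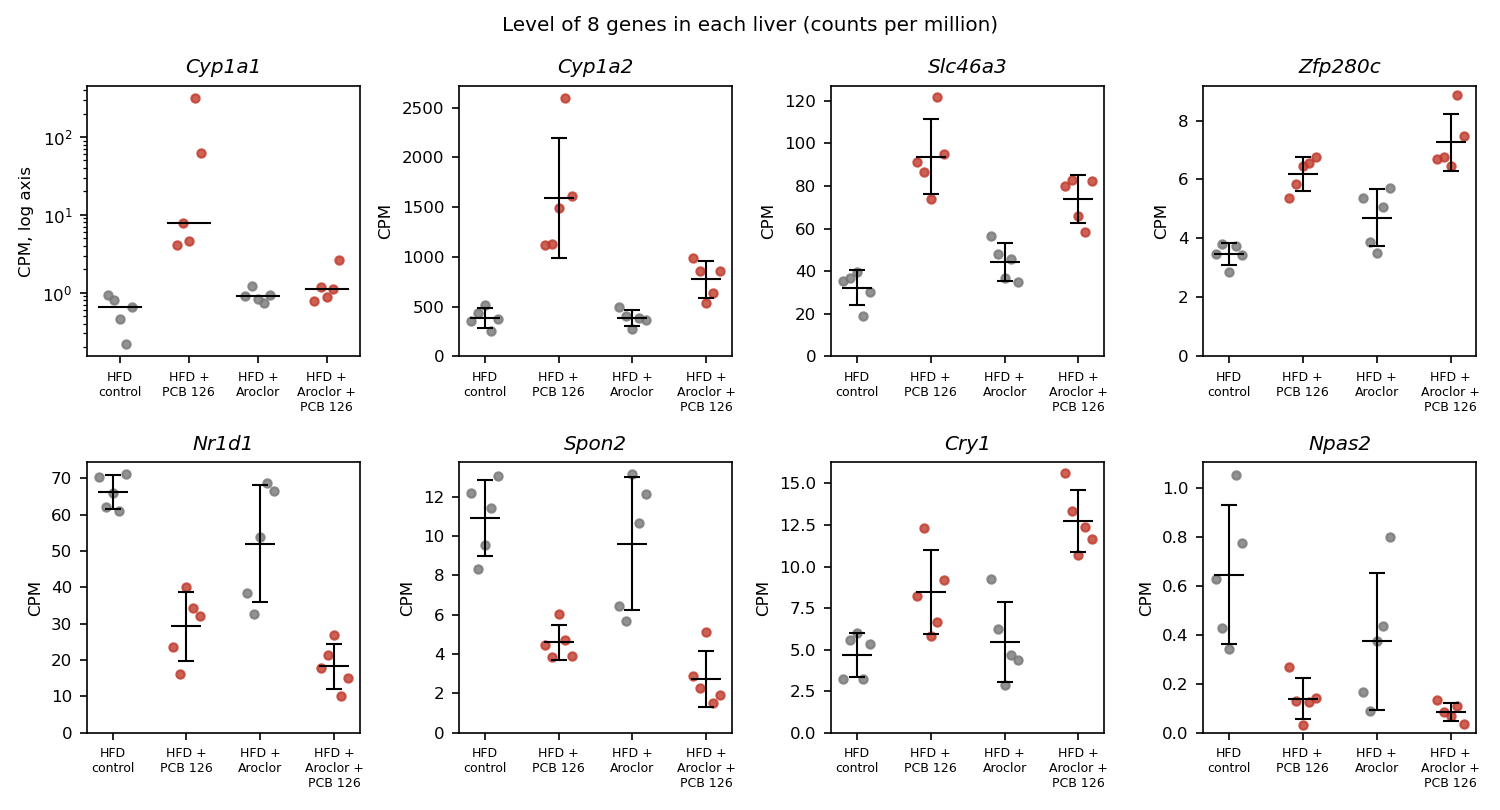
CPM of 8 genes in each of the 20 livers, 5 per group (grey without and red with PCB 126); black marks show the mean and SD, except for Cyp1a1, on a log axis, where the line is the median. All 10 livers with PCB 126 lie above all others for Cyp1a2 and Slc46a3, while Cyp1a1 separates without Aroclor only.

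Promoter sequences from RefSeq (GRCm38.p6) are shown for 4 genes, as 250 bases before to 50 after the start, on the strand of the gene. GCGTG and its reverse complement CACGC are in capitals. The first 3 are the AhR targets whose levels are given mouse by mouse above, and the last is Nr1d1, the clock gene with the smallest p, described next.
Cyp1a2 (chr9:57683606-57683905, minus strand): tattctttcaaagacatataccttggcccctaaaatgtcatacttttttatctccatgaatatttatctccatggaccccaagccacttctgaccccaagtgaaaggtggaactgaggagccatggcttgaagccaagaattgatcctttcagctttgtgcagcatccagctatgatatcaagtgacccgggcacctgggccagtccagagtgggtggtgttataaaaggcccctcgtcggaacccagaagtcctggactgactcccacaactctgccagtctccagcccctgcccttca
Slc46a3 (chr5:147894766-147895065, minus strand): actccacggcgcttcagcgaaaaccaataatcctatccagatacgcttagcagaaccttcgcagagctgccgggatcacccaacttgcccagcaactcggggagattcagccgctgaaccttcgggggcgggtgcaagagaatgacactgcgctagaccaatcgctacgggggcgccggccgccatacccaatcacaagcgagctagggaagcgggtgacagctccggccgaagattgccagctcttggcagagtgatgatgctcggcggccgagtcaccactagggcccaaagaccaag
Cyp1a1 (chr9:57697363-57697662, plus strand): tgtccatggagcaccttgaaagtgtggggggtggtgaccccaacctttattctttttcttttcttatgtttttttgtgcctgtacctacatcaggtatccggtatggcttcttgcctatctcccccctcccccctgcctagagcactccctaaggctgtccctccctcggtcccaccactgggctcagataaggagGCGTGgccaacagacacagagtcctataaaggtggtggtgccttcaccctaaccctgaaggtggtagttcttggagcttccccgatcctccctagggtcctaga
Nr1d1 (chr11:98775328-98775627, minus strand): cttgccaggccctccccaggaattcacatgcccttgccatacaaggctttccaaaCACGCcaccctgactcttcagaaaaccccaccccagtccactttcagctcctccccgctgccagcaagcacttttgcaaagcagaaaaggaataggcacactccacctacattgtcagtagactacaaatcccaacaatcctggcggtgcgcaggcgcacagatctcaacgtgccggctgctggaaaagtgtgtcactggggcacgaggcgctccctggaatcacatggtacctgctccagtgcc
The windows of Cyp1a2 and Slc46a3 held no GCGTG on either strand, and those of Cyp1a1 and Nr1d1 held 1 each. The windows of Npas2, Cry1 and Zfp280c, which are not printed, also held the motif. Those of Ugt1a9 and Fmo2, the other AhR battery genes that were called, did not. Of the windows of called genes, 47.2% of 417 for genes that rose and 46.5% of 398 for genes that fell held the motif, against 46.4% of 15338 windows of tested genes and 32.4% of all 32851 windows. For the genes also called after GC correction, the shares were 49.3% of 75 windows for those that rose and 50% of 34 for those that fell. These shares are close to the share over tested genes in both directions. Median GC content was 60.7% and 61.3% in the windows of genes that rose and fell, against 59.7% for tested genes. Sequence beyond these 300 bases was not searched.

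Genes of the circadian clock formed the second group. Liver cells keep time with a loop in which BMAL1 (Arntl), paired with CLOCK or NPAS2, drives the Per and Cry repressors and the nuclear receptor gene Nr1d1 (REV-ERBα), which in turn represses Arntl, Npas2 and Cry1. Of 16 clock genes, 5 were called (against 5% of all tested genes), 2 upwards and 3 downwards. After GC correction 4 of them remained called (against 0.812% of all tested genes). The hour at which each liver was taken is not given in the sources used here, which state a fast of about 6 h, and its part in these differences was not tested.

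Nr1d1 (ENSMUSG00000020889, chr11:98767932-98775333, GRCm38, minus strand) stood at 70.3, 62.2, 66.1, 61.0 and 71.3 CPM in the HFD control livers, against 23.5, 16, 40.1, 34.4 and 32.1 CPM in HFD + PCB 126. With Aroclor it stood at 38.4, 32.8, 53.9, 68.8 and 66.5 CPM without PCB 126 and at 17.9, 21.3, 26.8, 10 and 15.2 CPM with it. Within each background every liver with PCB 126 was below every one without it. The log2FC was −1.35 ± 0.18 (adjusted p = 0.000743), with −1.18 without and −1.51 with Aroclor, and −1.15 after GC correction (adjusted p = 0.000912). Nr1d1 overlaps Thra, which was also called lower (log2FC −0.35, adjusted p = 0.0376, and 0.645 after GC correction), and how HTSeq treated strand is not given in the sources used here.

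Npas2, low in these livers, was at 0.627, 0.428, 0.343, 1.05 and 0.774 CPM in the HFD control livers, against 0.268, 0.129, 0.0331, 0.124 and 0.141 CPM in HFD + PCB 126. With Aroclor it was at 0.166, 0.0875, 0.376, 0.437 and 0.799 CPM without PCB 126 and at 0.132, 0.0852, 0.0700, 0.109 and 0.0350 CPM with it. The groups were apart without Aroclor and overlapped with it. The log2FC was −2.12 ± 0.39 (adjusted p = 0.00742), near −2.16 and −2.08 in the 2 backgrounds.

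Cry1 moved upwards, from 3.21, 5.56, 6.03, 3.25 and 5.33 CPM in HFD control to 8.23, 12.3, 5.83, 6.68 and 9.18 CPM in HFD + PCB 126. On Aroclor it was at 9.24, 6.21, 2.86, 4.67 and 4.40 CPM without PCB 126 and at 15.6, 13.3, 10.7, 12.4 and 11.7 CPM with it. The livers were apart on Aroclor, while mouse 3 of HFD + PCB 126 lay within the range of HFD control. The log2FC was 1.04 ± 0.18 (adjusted p = 0.00664). Bhlhe41, a repressor of the loop, fell from a median of 10.2 to 6.95 CPM with a log2FC of −0.77 ± 0.17 (adjusted p = 0.0148).

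Hlf, a PAR bZIP factor under clock control, had a log2FC of 0.33 ± 0.09 (adjusted p = 0.0327, but 0.364 after GC correction). Cipc, a CLOCK-interacting repressor outside the list, was named by the rule for separated genes. It was at 49.0 to 63.8 CPM (median 58.0) in the 10 livers without PCB 126 and 68.9 to 90.3 CPM (median 75.4) in the 10 with it, with no overlap and a log2FC of 0.42 ± 0.06 (adjusted p = 0.00180). The other 11 clock genes did not pass. Among them Arntl and Clock had values of 0.04 and 0.06, Per1 −0.40, Per2 0.10, Per3 0.52 and Dbp −0.54, with adjusted p of at least 0.103.

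**Figure D3:**
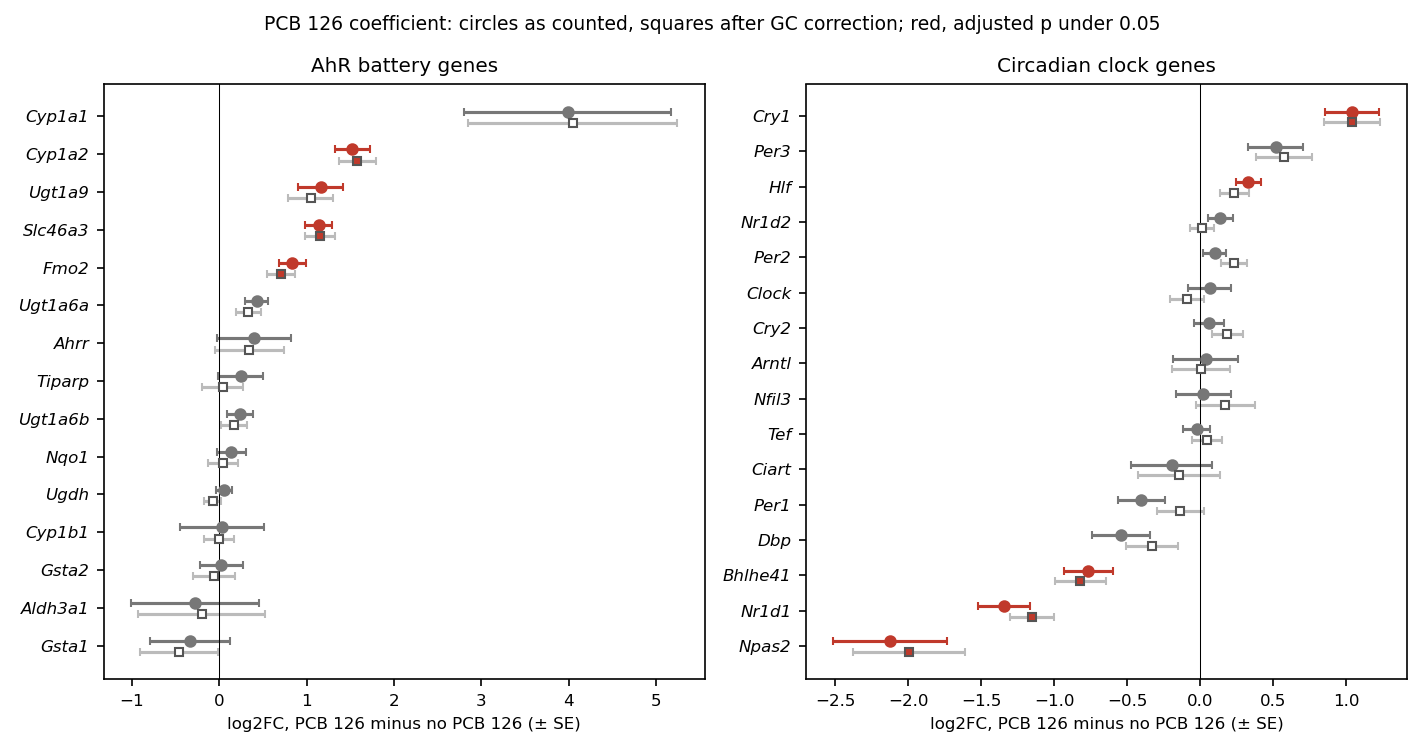
PCB 126 coefficient (log2FC, PCB 126 minus no PCB 126, ± SE) of 15 AhR battery genes and 16 clock genes, as counted (circles) and after GC correction (squares), red where the adjusted p was under 0.05. The largest AhR value, Cyp1a1 at 3.99, is not red, and the clock genes run from −2.12 for Npas2 to 1.04 for Cry1.

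Genes whose mice did not overlap in either background, in the same direction, numbered 33 (0.213%). Of these 32 were called (0.206%), and 30 were called and had a mean of at least 1 CPM, 15 in each direction (0.0966% each). In all, 17 of the 33 were higher (0.11%) and 16 lower (0.103%). The 10 that rose most were taken among those called with a mean of at least 1 CPM, with numbered gene models and clones left out. They were Cyp1a2, Slc46a3, Lonrf3, Ripor2, Zfp280c, Msmo1 (a sterol oxidase of cholesterol synthesis), Dnajb6 (an HSP40 cochaperone), Slc1a2 (a glutamate transporter), Cipc and Tmem87b. Zfp280c, a zinc finger gene, was at 3.47, 3.82, 2.86, 3.73 and 3.44 CPM in the HFD control livers, against 5.37, 5.83, 6.46, 6.56 and 6.75 CPM in HFD + PCB 126. On Aroclor it was at 5.35, 3.88, 3.50, 5.08 and 5.72 CPM without PCB 126 and at 6.69, 6.77, 6.47, 8.87 and 7.48 CPM with it. It was lower in every liver without PCB 126 than in those with it within each background, with a log2FC of 0.73 ± 0.10 (adjusted p = 0.000743, and 0.0366 after GC correction).

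Lonrf3, a RING finger gene on the X chromosome, rose from 0.526 to 1.46 CPM to 1.20 to 2.96 CPM, a log2FC of 1.21 ± 0.18 (adjusted p = 0.00180). Ripor2 rose from a median of 3.06 to 6.71 CPM, a log2FC of 1.10 ± 0.22 (adjusted p = 0.0107). Slc1a2, at 248 to 364 CPM without and 387 to 507 CPM with PCB 126, had a log2FC of 0.42 ± 0.08 (adjusted p = 0.00715, but 0.116 after GC correction). Msmo1 and Dnajb6 had log2FC of 0.61 and 0.51 and kept their calls after GC correction, while Tmem87b, at 0.41, had an adjusted p of 0.139 there.

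Of those that fell most, chosen in the same way, Spon2, which encodes a secreted matrix protein, came first. It was at 12.2, 8.33, 9.53, 11.4 and 13 CPM in the HFD control livers, against 4.47, 3.87, 6.03, 4.73 and 3.90 CPM in HFD + PCB 126. With Aroclor it was at 6.45, 5.69, 13.1, 10.7 and 12.1 CPM without PCB 126 and at 2.86, 2.26, 5.14, 1.49 and 1.92 CPM with it. The livers did not overlap within a background, and the log2FC was −1.52 ± 0.20 (adjusted p = 0.000743), with −1.24 without and −1.81 with Aroclor.

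The other 9 included Nr1d1 and ran from −0.57 to −0.88 for the rest. Atf5, a stress-response transcription factor, fell from 147 to 313 CPM (median 238) to 91.6 to 183 CPM (median 133), and Cbs, the first enzyme of transsulfuration, from 179 to 314 CPM (median 237) to 71.5 to 226 CPM (median 157). Their log2FC were −0.81 ± 0.12 and −0.64 ± 0.12 (adjusted p = 0.00129 and 0.00742). Atf5 overlaps Nup62 and Il4i1, and Zbtb45 overlaps Trim28, so their counts are uncertain. Cd9, a tetraspanin, fell by 0.57 on the log2 scale (adjusted p = 0.00916), and Fam20a and Impa2 (inositol monophosphatase 2) by 0.59 and 0.57, all 3 also after GC correction. Spsb1, Klf16 and Zbtb45 had log2FC of −0.87, −0.71 and −0.88 and adjusted p of 0.0804, 0.0919 and 0.171 after GC correction.

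After GC correction, the smallest p among doubly called genes belonged to Spon2, Nr1d1, Cyp1a2, Camk1d and Col27a1. Camk1d, a calmodulin-dependent kinase, had a log2FC of −0.67 ± 0.11 as counted and −0.69 after correction. Col27a1, a fibrillar collagen gene, had 0.69 ± 0.16 as counted and 0.97 after correction. Nsun7, of the NOL1/NOP2/Sun family of putative RNA methyltransferases, was low but separated all 20 livers, at 0.292 to 0.526 CPM without and 0.595 to 1.29 CPM with PCB 126, with a log2FC of 1.15 ± 0.17 (adjusted p = 0.00115).

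Because no mouse is in both backgrounds, each background was fitted alone to see whether genes called in 1 set of mice differed in the other. Without Aroclor, 4 genes passed: Cyp1a2, Slc46a3, Spon2 and Ly6d, the last a small surface protein gene. All 4 had the same sign with Aroclor and an unadjusted p under 0.05 there (edgeR), against 60.2% of all genes with the same sign and 19.3% with the same sign and such a p. With GC correction these 2 shares over all genes were 50.2% and 5.97%. Ly6d had a log2FC of −1.16 in the first set and −1.59 in the second (unadjusted p = 0.00869). None of the 4 passed after adjustment on Aroclor (adjusted p = 0.0676 to 0.0983), and on Aroclor alone no gene passed. In the fit of all 4 groups, 18 genes (0.116%) were called without Aroclor, 16 higher (0.103%) and 2 lower (0.0129%), and 64 (0.412%) with Aroclor, 16 higher (0.103%) and 48 lower (0.309%). At an unadjusted p under 0.05 the shares were 14.7% and 23.4%. With 18 libraries these counts were 11 and 0, and after GC correction 33 (0.213%) and 3 (0.0193%). Slc46a3, Spon2, Ripor2 and P4ha1 were first picked out from HFD + PCB 126 against HFD control in these same mice, so that only their values on Aroclor come from other mice. P4ha1, a collagen prolyl hydroxylase subunit, was among the 18, with −1.49 without and −0.24 ± 0.27 with Aroclor. It was called for the coefficient at −0.86 ± 0.24 (adjusted p = 0.0405), but in 11 of 20 fits that left out 1 mouse, the highest adjusted p being 0.0822 without HFD + PCB 126 mouse 5.

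**Figure D4:**
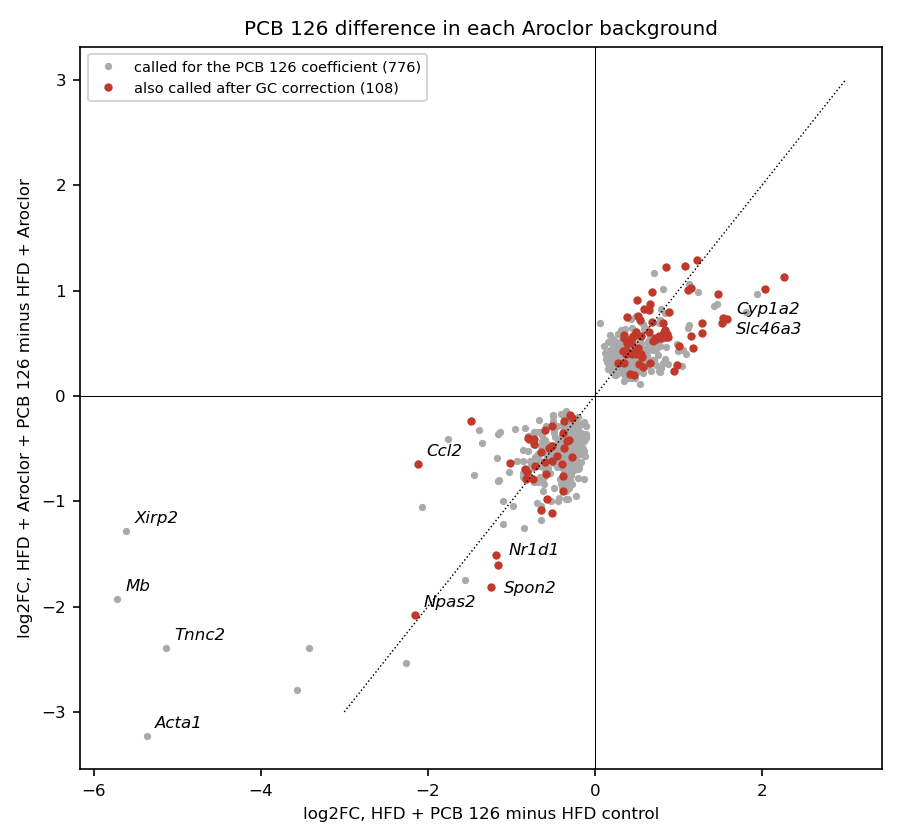
log2FC of PCB 126 without Aroclor (x axis) and with Aroclor (y axis) for the 776 genes called for the coefficient, in red the 108 also called after GC correction; the dotted line marks equal values. Since the genes were chosen on the average of both axes, points in the upper right and lower left follow from the choice, and the muscle genes at the far left (Acta1, Mb, Tnnc2 and Xirp2) rest on 1 HFD control mouse.

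The largest falls in fold were not of liver genes. Acta1, Mb, Tnnc2 and Xirp2, genes of skeletal muscle, were called lower with log2FC of −4.92 to −5.46 (adjusted p = 0.0374 to 0.0448). Acta1 stood at 12.1 CPM in HFD control mouse 4 and at no more than 0.117 CPM in any other liver, Mb at 8.42 CPM against at most 0.106, Tnnc2 at 6.71 against at most 0.0704 and Xirp2 at 2.72 against at most 0.0333. With 18 libraries none of the 4 was called (log2FC of 0.01 to 0.75, adjusted p of at least 0.675). None of the 127 genes that were at least 10 times higher in both libraries with adrenal transcripts than in any other, and at 1 CPM or more in both, was called for the PCB 126 coefficient. Of these libraries 1 is without and 1 with PCB 126, so the choice of genes high in both made calls unlikely. Des, which encodes desmin of stellate cells and of muscle, was at 13.4 CPM at most without PCB 126 and at 2.95 CPM at most with it. Its log2FC was −0.97 ± 0.24 with 20 libraries and −0.90 with 18 (adjusted p = 0.0268 and 0.0416), with 0.131 after GC correction.

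Of 10 genes of bile acid synthesis and transport, 2 passed (1 after GC correction), where 5% of all tested genes were called as counted and 0.812% after GC correction: Cyp7a1, the rate-limiting enzyme of their synthesis, rose from a median of 243 CPM (97.9 to 387) to 464 CPM (199 to 640), and Abcb11, the canalicular bile salt export pump, fell from 399 CPM (352 to 492) to 340 CPM (289 to 396). The livers overlapped for both. The log2FC were 0.88 ± 0.23 and −0.30 ± 0.08 (adjusted p = 0.0316 and 0.0302, and 0.160 and 0.0366 after GC correction). With 18 libraries Abcb11 had an adjusted p of 0.0505. When 1 mouse was left out these were called in 11 and 14 of 20 fits, with the highest adjusted p at 0.0619 (without HFD + PCB 126 mouse 2) and 0.0600 (without HFD + PCB 126 mouse 5).

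Of 12 genes regulated by CAR and PXR, the nuclear receptors through which non-dioxin-like PCBs act, 2 passed (against 5% of all tested genes). These were Nr1i3 (CAR itself, which overlaps Tomm40l) and Cyp3a25, with log2FC of 0.55 ± 0.16 and 0.39 ± 0.10 (adjusted p = 0.0496 and 0.0359). After GC correction neither did (0.0505 and 0.557), Cyp3a25 did not with 18 libraries (adjusted p = 0.0656), and when 1 mouse was left out they passed in 5 and 11 of 20 fits. Cyp2b10 and Cyp2c55, the usual CAR markers, had values of 0.15 and −0.22 (adjusted p = 0.904 and 0.763). Of 12 genes of the NRF2 antioxidant group 1 passed, against 5% of all tested genes: Hmox1 (heme oxygenase) fell by 0.57 on the log2 scale (adjusted p = 0.0304, and 0.148 after GC correction). After GC correction 1 of the 12 was called lower, against 0.812% of all tested genes, and this was Me1, described below. Of 12 genes of glucose handling 1 passed, against the same 5%: Ppargc1a, a coactivator of gluconeogenesis, rose by 0.46 ± 0.10 (adjusted p = 0.0138, and 0.165 after GC correction).

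As counted, none of 12 genes of de novo lipogenesis, 14 of fatty acid oxidation, 15 of cholesterol synthesis and uptake and 10 of fibrosis passed. The lowest adjusted p was 0.0626, for Fasn (fatty acid synthase, log2FC −0.50). The cholesterol list does not hold Msmo1, which was called higher (log2FC 0.61, adjusted p = 0.00638, and 0.0439 after GC correction). The fibrosis genes had a median of −0.37, and 1 of the 10 was above 0, against −0.02 and 7353 of 15522 over all tested genes. After GC correction the values were −0.28 and 0 of 10, against −0.006 and 7527 of 15522. For Me1, malic enzyme, the adjusted p was 0.134 as counted and 0.0241 after GC correction (log2FC −0.23 and −0.32). It is a member of the lists of de novo lipogenesis and of NRF2, and the only 1 of either list called after GC correction. Of the 47 tested genes of RNA modification that the study followed, 1 was called, against 5% of all tested genes: Trmt2b, a tRNA methyltransferase of mitochondria, at 0.22 ± 0.06 (adjusted p = 0.0447, 0.0608 with 18 libraries and 0.465 after GC correction).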

How the data were processed

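Poly(A) RNA of 20 livers was measured by RNA-seq. The deposited values are raw counts, which the authors made as follows: stranded libraries were sequenced in 2 runs, checked with FastQC 0.10.1, aligned to GRCm38.p6 with STAR 2.6 and counted with HTSeq 0.10.0. The annotation and strand setting of the counting are not given in the sources used here. Groups came from the sample titles. The title of HFD + PCB 126 mouse 2 carries a library name ending in 3, and the title's replicate number was followed. Total counts were 21836506 to 36854887 per library. No pair of libraries within a group (40 pairs) was close enough in counts to be one library deposited again, and each was taken as 1 mouse.

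Genes whose counts summed to 10 or more were fitted with edgeR 4.0.16 in R 4.3.3 (TMM, quasi-likelihood F test, PCB 126 plus Aroclor, 17 residual degrees of freedom), with Benjamini-Hochberg adjustment over 15522 genes and a threshold of 0.05. Contrasts within a background and the interaction came from a fit of 4 groups (16 degrees of freedom). CPM values are TMM-scaled. The SE is the log2FC divided by the square root of F. For GC correction, each library's log2 CPM deviations (prior count 1) were smoothed over exon GC content (GENCODE M21, spline with 6 degrees of freedom) and entered as an offset. The tests were tested on simulated data first. Promoters are from RefSeq.

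Genes named were the AhR lists, 4 genes seen in an earlier reading of HFD + PCB 126 against HFD control (Slc46a3, Ripor2, P4ha1 and Spon2), members of other lists past the threshold, up to 10 separated genes each way by size, the 5 smallest p, and the 10 smallest p after GC correction among doubly called genes. Members and lists were chosen with earlier results of these data known, and a few genes of these lists are not reported here. Adrenal and muscle genes, Ly6d and Me1 were added after their values were seen, as were Cxcl10, Ccl2, Usp18, Cmpk2, Anxa2, S100a10, Tfrc, Ppp1r3b, Gpcpd1, Nampt and Elovl5. Replicate numbers were not taken to pair the mice. Alternatives were DESeq2 1.42.0, other scalings and filters, other models, GC and length corrections, a replicate block and each mouse left out.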

Additional observations from a re-analysis of the deposited data

Results flagged for a closer look

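Within groups of 5, 21 values stood apart from the other 4 by Dixon's criterion, among 239 groups looked at. Chance gives about 1 in 20 for normally distributed values. The groups held CPM values, and those of Cyp11a1 and Chga were added after they were seen to stand apart, so the count cannot be set against that rate. The adrenal transcripts were among the 21 values. Chga was at 214 CPM in HFD control mouse 4 and at 70.1 CPM in combined mouse 4 (0.141 CPM in HFD + PCB 126 mouse 5 was also apart from zeros), and Cyp11a1 at 324 and 159 CPM in the same 2 livers. Cyp1b1 was at 4.39 and 6.84 CPM there, against group medians of 0.770 and 1.29 CPM.

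Cyp1a1 was at 314 CPM in HFD + PCB 126 mouse 4 (median 7.80) and at 2.62 CPM in combined mouse 5 (median 1.13). HFD + PCB 126 mouse 1 was apart for Gsta1 (4.83 CPM, median 0.516), Gsta2 (28.1 CPM, median 11.8) and Nqo1 (20.5 CPM, median 11.2). HFD + Aroclor mouse 3 was apart for Bhlhe41 (16.3 CPM, median 9.61) and Cyp3a25 (554 CPM, median 828), mouse 4 of that group for Des (7.27 CPM, median 3.24) and mouse 2 for Ugt1a6a (12.2 CPM, median 16.5). HFD control mouse 5 was apart for Spsb1 (2.19 CPM, median 1.33) and for Tiparp (18.3 CPM, median 5.70). The last 3 were Col27a1 at 56.5 CPM (median 34.1) and Aldh3a1 at 0.0662 CPM (median 0) in HFD + PCB 126 mouse 3, and Trmt2b at 64.4 CPM (median 55.2) in combined mouse 5.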

How the results depend on the processing

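The count for the PCB 126 coefficient (776) was 80 at an adjusted p under 0.01, 118 without the Aroclor factor, 126 with GC correction (134 with the replicate block as well, 129 with length), 196 with GC correction and 18 libraries, and 1704 with DESeq2, and it ran from 337 to 1714 with 1 mouse left out. With a covariate for the GC slope it was 547, of which 19.6% were higher against 55.7%, and with 18 libraries 45.1% of 923 were higher. Without Aroclor (18) it was 48 with the FPKM filter, 101 with the block, 33 with GC correction, 4 in its own 10 libraries, 11 with 18 libraries and 4 to 131 with 1 mouse left out. With Aroclor (64) it was 107 with RLE, 13 with no filter, 728 with the FPKM filter, 475 with the block, 3 with GC correction, 0 in its own 10 libraries and with 18, and 0 to 1011 with 1 mouse left out. The interaction (0) had 1 call with DESeq2 and 38 with the replicate block, and in 37 of those 38 genes both libraries with adrenal transcripts were above all others. The gene called with Aroclor and read without it numbered 1 after GC correction and 0 before. Replicate numbers shared by the groups were not taken to pair the mice. Libraries of the same number in different groups had a median r of 0.0797, against −0.0126 for other pairs. The r was over 0.1 in 15 of 30 same-number pairs, and 7 of 20 libraries correlated best with their own number. These values do not settle whether the mice were paired. The block gave 763 for the coefficient. The GC slope difference ran from −0.28 to −0.22 with 1 mouse left out.

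Some uncalled genes changed sign. With GC correction Cyp1b1 was −0.00019, Gsta2 −0.056 and Ugdh −0.075 (with length Ugdh −0.082, and with the block Cyp1b1 −0.033 and Ugdh −0.068). With the slope covariate Ahr was −0.26, Ahrr −0.14, Aldh3a1 0.55, Cyp1b1 −1.0, Gsta2 −0.21, Tiparp −0.38, Ugdh −0.081 and Ugt1a6b −0.15. With 18 libraries Cyp1b1 was −0.057, Gsta2 −0.086 and Ptges3 0.010, and with GC correction as well Cyp1b1 was −0.094, Gsta2 −0.15, Nqo1 −0.035, Tiparp −0.057 and Ugdh −0.11. With 1 mouse left out Aldh3a1 ran from −0.75 to 0.061, Cyp1b1 from −0.52 to 0.53, Gsta2 from −0.14 to 0.17 and Ptges3 from −0.063 to 0.024. Leaving out 1 mouse ended calls for Hlf, Hmox1, Des and Trmt2b as well (called in 13, 15, 17 and 7 of 20 fits). Dropping the 2 libraries that hold adrenal transcripts was an alternative chosen after seeing the data. The causes were not tested.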

Other observations

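The genes given here were chosen after their values were seen, from those called with and without GC correction, and stand for no list. Cxcl10, an interferon-induced chemokine, was at 5.77, 7.53, 8.24, 5.88 and 8.17 CPM in the HFD control livers, against 3.82, 3.25, 3.71, 2.70 and 4.01 CPM in HFD + PCB 126, with no overlap. On Aroclor it was at 3.96, 12.5, 9.85, 8.99 and 6.33 CPM without PCB 126 and at 6.78, 5.66, 6.89, 3.82 and 3.78 CPM with it, where the groups overlapped. The log2FC was −0.82 ± 0.17 (adjusted p = 0.0128 by edgeR). Ccl2, which draws monocytes, had −1.37 ± 0.34 (adjusted p = 0.0274), and −1.06 with 18 libraries (adjusted p = 0.0358), its highest level being the 6.75 CPM of HFD control mouse 4. Usp18 and Cmpk2, both induced by interferon, had −0.57 and −0.50 (adjusted p = 0.0136 and 0.0148). With 18 libraries and GC correction Usp18 was not called (adjusted p = 0.0617). Anxa2 and S100a10, whose proteins form a complex at the membrane, had −0.77 and −0.43 (adjusted p = 0.0141 and 0.0104). The 8 markers of Kupffer cells and macrophages summed to 138 to 386 CPM (median 307) with PCB 126 and 210 to 555 CPM (median 318) without it, and none of the 8 was called, though all 8 had a log2FC under 0. Their part in the levels of Cxcl10 and Ccl2 was not tested.

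Genes chosen in the same way that rose were Tfrc, the transferrin receptor (log2FC 0.73 ± 0.13, adjusted p = 0.00715), Ppp1r3b, a glycogen-targeting subunit of protein phosphatase 1 (0.76 ± 0.15, adjusted p = 0.0104), Gpcpd1, a glycerophosphocholine phosphodiesterase (0.85 ± 0.17, adjusted p = 0.00973), and Nampt, of NAD synthesis (0.55 ± 0.10, adjusted p = 0.00703). Tfrc stood at 14 to 24.5 CPM in the HFD control livers, against 28.1 to 43.9 CPM in HFD + PCB 126, without overlap, and at 25.4 to 52.7 and 41.5 to 64.9 CPM on Aroclor, with overlap. Elovl5, an elongase of polyunsaturated fatty acids, had −0.37 ± 0.08 (adjusted p = 0.0148).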
